A study of Homo sapiens and Mus musculus with 66 samples.

Results

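The regions described here were the outermost 2 Mb of the human autosome arms, read from lists of lamina-associated domains (LADs) called after lamin-B1 cTSA-seq. Each end was taken as the 20 outermost windows of 100 kb of the hg19 assembly. The short arms of chromosomes 13, 14, 15, 21 and 22 were left out because their sequence is not assembled. This left 39 ends, 17 of short arms and 22 of long arms, and 780 windows of the 28823 on the autosomes. No readout entered the choice of windows.

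The lists came from 2 established human cell lines without engineered alleles named in the labels, HCT116, a colon carcinoma line, and K562, a leukemia line. HCT116 cells were labelled as bulk cells, as 50000, 200000 or 1000000 cells (50k, 200k and 1e6), or as G1, S and G2. Bulk, 50k, 200k and 1e6 are called the asynchronous lists below, as their labels name no block and no stage. By the paper, the G1, S and G2 cells were sorted from asynchronous cultures too. HCT116 cells were also held in nocodazole, which the labels give as 16 h, fixed 90 or 180 min after release, and sorted for cells in G1 (90m G1 and 180m G1). K562 cells were labelled as bulk cells, and every condition used lamin-B1 antibody with input as its control. Both lines are of cancer origin, and their rearranged chromosomes were not analysed here.

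The nuclear lamina is a meshwork of lamins under the inner nuclear membrane, and LADs are the long, mostly gene-poor stretches of chromatin that lie against it. In cTSA-seq, a peroxidase-coupled antibody deposits biotin on proteins and other molecules close to its target, and the biotinylated chromatin is recovered with streptavidin and its DNA sequenced. The lamina is taken apart in mitosis and rebuilt around the chromosomes as cells enter G1. Chromosome ends carry telomeres, arrays of short repeats, next to subtelomeres in which copies of the same genes recur on many ends.

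The lists hold starts and ends of called regions and nothing else. Each condition has 1 list, so no spread between replicates, no depth and no test can be given for any value below. The labels give only 1 pull-down and 1 input library for 1e6, so that list may not rest on replicates as the others do. The only measure of error is the range over lists that should resemble each other. Across the 50k, 200k and 1e6 lists, the share of terminal windows called was 13.5% ± 1.50 (SD over 3 lists). With the bulk list, which is also of asynchronous HCT116 cells, it was 18.9% ± 10.9 (SD over 4 lists). Across 180m G1, G1, S and G2 it was 16.7% ± 1.33 (SD over 4 lists, which are different stages). A window covered by a region is written as called. It does not tell how strong the lamin-B1 signal was.

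The bases before the start of 4 genes are printed because the genes stand for the 4 patterns met below, namely a gene called in every list, one called in early G1 up to 180 min, one called in 90m G1 only, and one never called. They are the 250 bases upstream of the RefSeq start (GRCh38.p14), located in hg19 by exact match. They read 5′ to 3′ on the strand of the gene, and capitals mark CG dinucleotides, which read the same on both strands.
CHL1, chr3:239322-239571, plus strand, called in all 10 lists: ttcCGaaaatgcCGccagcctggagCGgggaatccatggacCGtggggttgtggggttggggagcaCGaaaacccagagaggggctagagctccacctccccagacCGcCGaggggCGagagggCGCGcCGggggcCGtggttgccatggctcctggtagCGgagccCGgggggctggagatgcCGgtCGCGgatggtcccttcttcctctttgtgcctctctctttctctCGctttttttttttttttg
FOXC1, chr6:1609900-1610149, plus strand, called in 90m G1 and 180m G1: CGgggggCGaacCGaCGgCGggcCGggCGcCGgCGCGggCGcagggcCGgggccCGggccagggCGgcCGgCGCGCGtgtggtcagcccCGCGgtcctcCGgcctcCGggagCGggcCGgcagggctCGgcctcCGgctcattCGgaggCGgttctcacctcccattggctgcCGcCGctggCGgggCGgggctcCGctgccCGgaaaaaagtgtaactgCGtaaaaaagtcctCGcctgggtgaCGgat
MUC2, chr11:1074624-1074873, plus strand, called in 90m G1 only: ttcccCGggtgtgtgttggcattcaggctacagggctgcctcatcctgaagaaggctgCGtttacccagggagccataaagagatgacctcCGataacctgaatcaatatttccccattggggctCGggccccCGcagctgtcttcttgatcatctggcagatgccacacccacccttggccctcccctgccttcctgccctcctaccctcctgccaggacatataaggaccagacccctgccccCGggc
POLRMT, chr19:633538-633787, minus strand, called in no list: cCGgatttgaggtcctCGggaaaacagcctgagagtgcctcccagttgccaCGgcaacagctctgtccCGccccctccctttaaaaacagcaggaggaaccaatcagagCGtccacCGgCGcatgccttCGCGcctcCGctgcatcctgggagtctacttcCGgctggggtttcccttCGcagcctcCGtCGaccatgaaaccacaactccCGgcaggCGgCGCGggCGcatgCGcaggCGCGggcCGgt

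The stretches held 18, 37, 6 and 23 CG dinucleotides, in the order CHL1, FOXC1, MUC2 and POLRMT. The median over 33725 autosomal RefSeq promoters was 11, and 93.9% of them held at least 1. A promoter could be matched to 891 of the 1215 terminal protein-coding genes, or 73.3%, which is too few to compare CG content between groups of genes.

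Chromosome ends were called far more often 90 min after release than in any other list. In 90m G1, 513 of the 780 terminal windows were called, or 65.8%, against 16.8% of all autosomal windows and 15.4% of those outside the ends. By 180m G1 the count was 125, or 16.0%, against 19.4% of all windows. It was 146 in G1 (18.7%, against 19.4%), 127 in S (16.3%, against 21.5%) and 124 in G2 (15.9%, against 19.2%). The 4 later stages therefore lay within 2.82 points of each other, while 90m G1 was 47.1 points above the highest of them.

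In the asynchronous HCT116 lists, 118 terminal windows were called from 50k cells (15.1%, against 21.6% of all windows), 103 from 200k cells (13.2%, against 20.9%) and 95 from 1e6 cells (12.2%, against 20%). The bulk list stood apart with 274 windows, or 35.1%, against 25.9%. It is the one asynchronous list in which the ends were called more often than the rest of the autosomes, 35.1% against 25.7%. In K562, 94 terminal windows were called, or 12.1%, against 39.6% of all windows. Of the 10 lists, K562 had the highest share over the autosomes and, together with 1e6, the lowest at the ends.

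**Figure D1:**
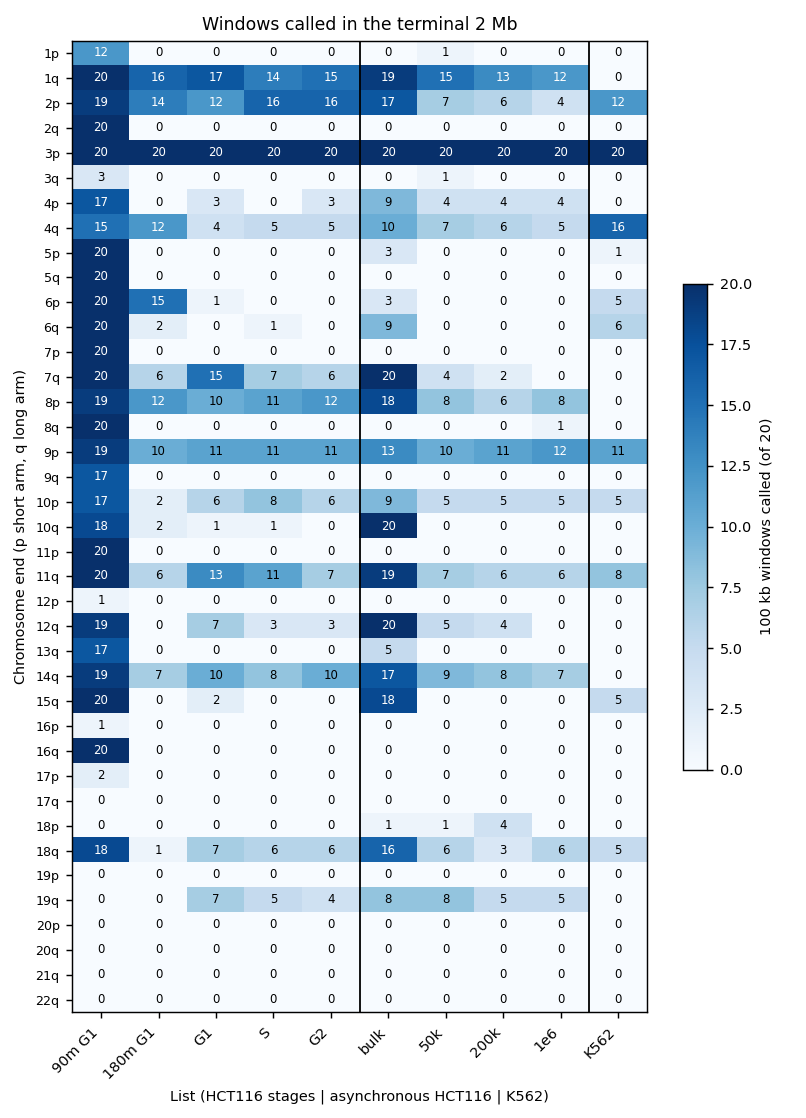
Number of 100 kb windows called, of 20, at each of the 39 chromosome ends (rows; p short arm, q long arm) in each of the 10 lists (columns; lines separate HCT116 stages, asynchronous HCT116 lists and K562). The 90m G1 column has 12 to 20 windows called at 27 ends and 0 to 3 at 12, and only the row of 3p is full in all lists.

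In 90m G1 the ends fell into 2 sets with nothing between them. At 27 ends 12 to 20 of the 20 windows were called, and at 12 ends 0 to 3 were. All 20 windows were called at 14 ends, 1q, 2q, 3p, 5p, 5q, 6p, 6q, 7p, 7q, 8q, 11p, 11q, 15q and 16q. The lowest end of the first set was 1p, where the outermost window and then 11 windows from 0.9 Mb inward were called. The second set held 3q with 3 windows, 17p with 2, 12p and 16p with 1 each, and 17q, 18p, 19p, 19q, 20p, 20q, 21q and 22q with 0.

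The 2 sets had almost the same base composition, 48.5% GC at the 27 ends and 49.9% at the 12. They differed more in gene density, with 13.1 and 21.9 protein-coding genes per Mb, and in the size of their chromosomes, with medians of 146 and 70.6 Mb. On the 11 longest autosomes, 1 to 11, 396 of 440 terminal windows were called in 90m G1, or 90.0%, and 3q was the one end of 22 with fewer than 10. On chromosomes 12 to 22 the count was 117 of 340, or 34.4%, and 6 of 17 ends had 10 or more. Chromosomes 17, 19, 20, 21 and 22, named after their values were seen, had 2 of 160 windows called, both at 17p. Over the 39 ends, the Spearman correlation of windows called in 90m G1 with chromosome length was 0.60 and with GC content −0.14. For G1 the same correlations were 0.27 and −0.52, and for K562 0.30 and −0.55. These are descriptions over ends, in which both ends of a chromosome share its length.

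The outermost window was called at 22 of the 39 ends in 90m G1 and at 1 to 3 ends in 180m G1, G1, S and G2. It was called at 5 ends in the bulk list, at 3 to 4 in the 50k, 200k and 1e6 lists, and at 1 end, 3p, in K562. These windows are poorly covered by the assembly, and 22 of the 39 were over 50% unknown bases, 12 of them among those called in 90m G1. At 9 ends the outermost window held no known base at all. It was called in 90m G1 at 4 of these, 4q, 6q, 11q and 16q, and at none of them in any other list. A window without known bases can hold no aligned read, so these 4 calls carry no measurement of their own. Leaving out all 34 terminal windows with over 50% unknown bases gave 66.1% in 90m G1.

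Within the 2 Mb, the outer and the inner 1 Mb had similar shares in 90m G1, 63.3% and 68.2%. The outer part was lower in the later stages, with 11.03% and 21.03% in 180m G1 and 15.9% and 21.5% in G1. It was lower by the most in K562, with 5.13% and 18.97%. Shares were also taken over the first 20 Mb from each end, counted without a stop at the centromere. In 90m G1 the share called was 65.8% at 0 to 2 Mb and 69.2% at 2 to 4 Mb. It was then 62.3%, 53.5%, 49.1%, 41.3%, 34.1%, 38.5%, 26.3% and 26.0% in successive steps of 2 Mb. G1, S, G2 and 180m G1 were low at the end itself and highest at 6 to 8 Mb, where the shares were 34.4% (180m G1), 32.4% (G1), 36.9% (S) and 32.3% (G2). K562 rose from 12.1% at the end to 41.2% at 6 to 8 Mb.

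**Figure D2:**
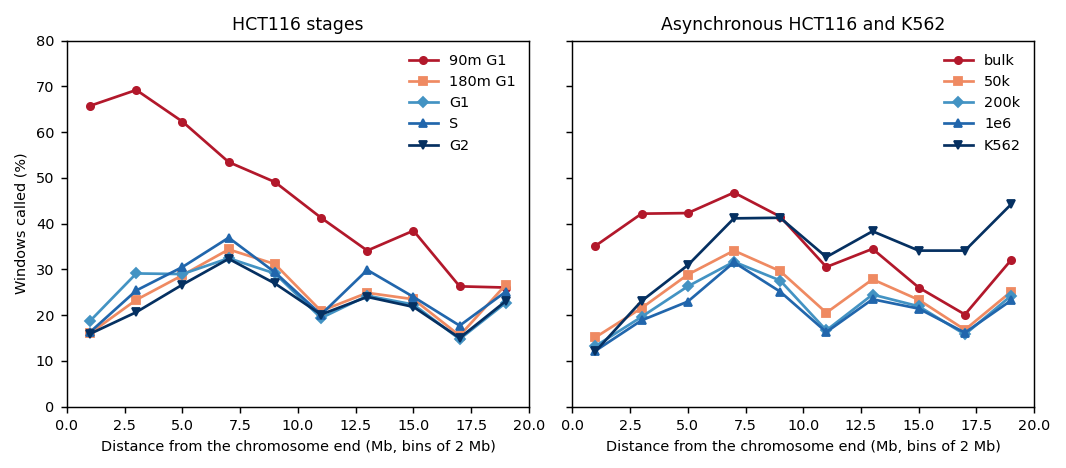
Percent of windows called by distance from the chromosome end, in bins of 2 Mb over 39 ends, for the 5 HCT116 stages (left) and the asynchronous HCT116 and K562 lists (right). The 90m G1 line falls from 65.8% at the end to 26.0% at 18 to 20 Mb, and the other 4 stages start between 15.9% and 18.7%.

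Where the 90m G1 call ran on through the 2 Mb mark, which it did at 26 ends, it stopped at a median of 7.40 Mb from the end. The shortest such run ended at 2.10 Mb, at 15q, and the longest at 24.0 Mb, at 2p, and 9 passed 10 Mb. In the bulk list 16 ends had such a run, with a median of 4.90 Mb. In the other lists 7 to 10 ends had one, with medians of 2.95 to 3.20 Mb.

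From 90m G1 to 180m G1 the ends only lost calls. All 125 windows called in 180m G1 had been called in 90m G1, 388 were lost and 0 were gained. Outside the ends, 2603 windows were lost and 3740 gained, and 31.5% of the 180m G1 windows had been called before. Over all autosomal windows, the lost ones were 10.4% and the gained ones 13%. At 2q, 5p, 5q, 7p, 8q, 11p, 15q and 16q all 20 windows were called in 90m G1 and 0 in 180m G1.

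The windows that kept their call had lower GC content, with a median of 41.5% in the 125 kept and 50.8% in the 388 lost. They held 5.76 and 16.0 protein-coding genes per Mb. GC content was also lower in kept windows within 10 of the 13 ends that had both kinds, with a median difference of −2.52 points and a range from −14.6 at 14q to 2.37 at 2p. Fewer genes per Mb in the kept windows were found at 10 of the 13. The same contrast held outside the ends, where kept windows had a median GC of 39.9% and lost windows of 45.5%.

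Over the 5 stages, 337 terminal windows were called in 90m G1 only, or 43.2%, against 8.83% of all autosomal windows. They had 51.5% GC and 17.7 genes per Mb. A further 88 were called at all 5 stages, or 11.3%, against 4.93%, and these had 41.6% GC and 6.59 genes per Mb. Another 88 were called in 90m G1 and at some later stage. The windows called at a later stage but not in 90m G1 numbered 8, or 1.03%, against 17.6%, and all 8 were at 19q. The other 259 windows, with 49.5% GC and 20.9 genes per Mb, were called at no stage. Windows called in 90m G1 only and windows called at no stage thus resembled each other in base composition and gene density more than either resembled those called at all stages.

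At 10 ends, 1p, 2q, 5p, 5q, 7p, 8q, 9q, 11p, 13q and 16q, most windows were called in 90m G1 and none at the 4 later stages. These ends had 53.1% GC and 22.2 genes per Mb. Of the 27 ends well covered in 90m G1, 11 had windows called at every stage, 1q, 2p, 3p, 4q, 7q, 8p, 9p, 10p, 11q, 14q and 18q, with 44.5% GC and 6.41 genes per Mb. Over all 10 lists, 7 ends had windows called in each, 2p, 3p, 4q, 9p, 10p, 11q and 18q. No window was called in any list at 6 ends, 17q, 19p, 20p, 20q, 21q and 22q, which had 52.9% GC and 23.6 genes per Mb. By windows, 46 were called in all 10 lists, or 5.90%, against 3.9% of all autosomal windows, and 242 in none, or 31.0%, against 45.5%.

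**Figure D3:**
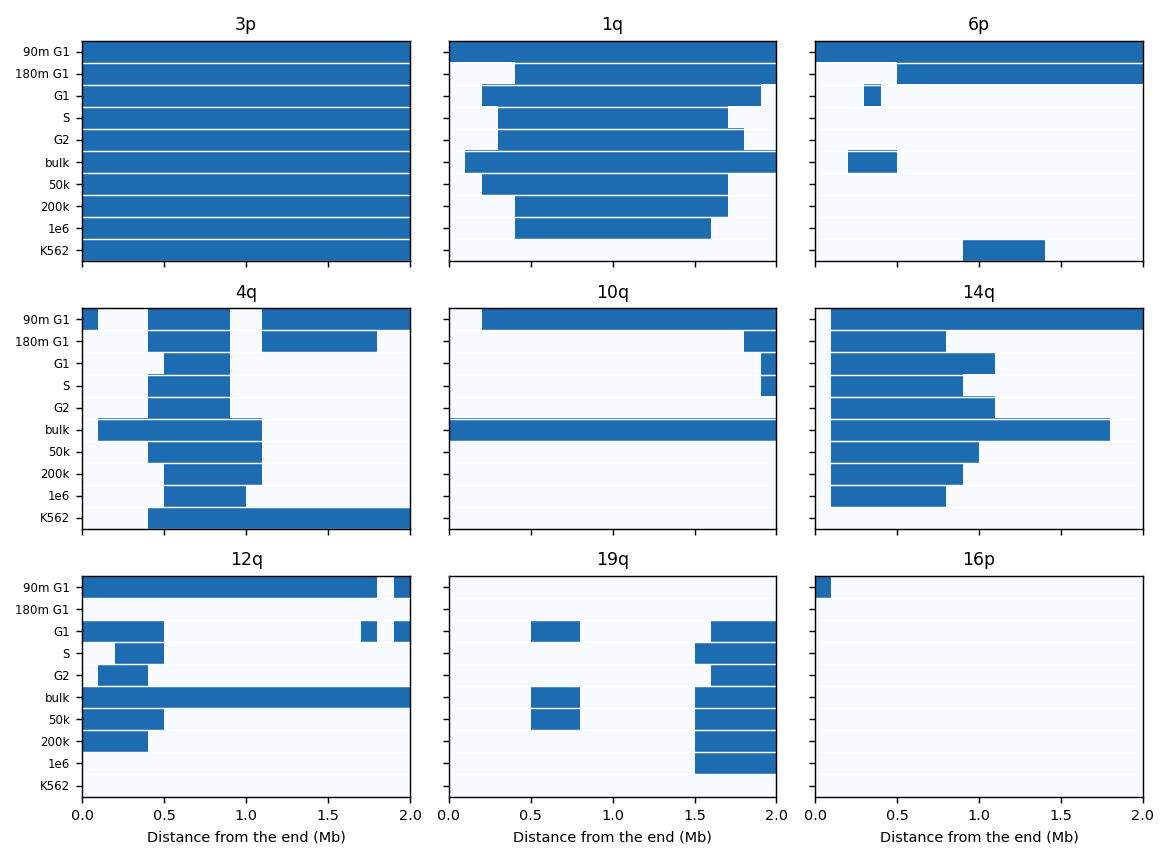
Calls along the outermost 2 Mb of 9 ends, one panel per end, with distance from the end in Mb on the horizontal axis in 20 windows and the 10 lists as rows, in which blue marks a called window. The 3p end is called throughout in all lists, 16p only in its outermost window in 90m G1, and 19q only in lists other than 90m G1, 180m G1 and K562.

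The 3p end was called in all 20 windows of all 10 lists. It had the lowest GC content, 36.8%, and the fewest genes per Mb, 1.00, of the 39 ends. Its 2 protein-coding genes, CHL1 and CNTN6, encode cell adhesion proteins of neurons. The other end of the same chromosome, 3q, was called in 3 windows in 90m G1, in 1 window from 50k cells and in none elsewhere. Its outermost gene LMLN and its longest gene DLG1, which encodes a scaffold protein of cell junctions, were in no called region.

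At 6p, 20 windows were called in 90m G1, 15 in 180m G1, 1 in G1 and 0 in S and G2, with 5 in K562. The calls in 180m G1 ran from 0.5 Mb inward. This end carries FOXQ1, FOXF2 and FOXC1, which encode forkhead transcription factors. At 4q the counts were 15, 12, 4, 5 and 5 over the stages, 5 to 10 in the asynchronous HCT116 lists and 16 in K562. The 7q end, whose longest gene is PTPRN2, of 1049 kb, had 20, 6, 15, 7 and 6 windows over the stages and 20 in the bulk list, against 4, 2 and 0 in the 50k, 200k and 1e6 lists.

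At 19q no window was called in 90m G1 or 180m G1. In G1, S and G2 the counts were 7, 5 and 4, in the asynchronous HCT116 lists 5 to 8, and in K562 0. In G1 the calls covered chr19:57200001-57600000, which ran on inward to 2.3 Mb from the end, and chr19:58400001-58700000. The first holds ZIM2 and PEG3, an imprinted zinc finger gene, and the second is within a cluster of zinc finger genes. Each other end called at a later stage had been called in 90m G1.

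At 14q the outermost called stretch was the immunoglobulin heavy chain locus. The counts over the stages were 19, 7, 10, 8 and 10, with 7 to 9 in the 50k, 200k and 1e6 lists, 17 in the bulk list and 0 in K562. All these calls ended at the same outer boundary, chr14:107300000. The 90m G1 call ran on past the 2 Mb mark, to 2.9 Mb from the end. The inner boundaries of the other calls ranged from 105600001 in bulk to 106600001 in 180m G1 and 1e6. The window outside that boundary held no known base.

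Short-arm and long-arm ends were compared on the 17 chromosomes that have both, with 340 windows in each. In 90m G1 60.9% of short-arm and 73.5% of long-arm windows were called, a difference of −12.6 points. The short-arm end had more windows on 4 chromosomes and fewer on 7, and both were equal on 6. The gap came mostly from 3 chromosomes on which one end was close to full and the other close to empty, with 1 and 19 windows on chromosome 12, 1 and 20 on chromosome 16 and 0 and 18 on chromosome 18, against 20 and 3 on chromosome 3. On chromosomes 5, 6, 7 and 11 all 20 windows were called at both ends.

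In the later stages the sign of the difference varied, at 8.24 points (180m G1), −2.35 (G1), 3.82 (S) and 6.47 (G2). It was 0.88 in the 50k, 5.00 in the 200k and 5.29 in the 1e6 list, and −14.1 in the bulk list, in which 27.4% of short-arm and 41.5% of long-arm windows were called. In K562 it was 5.59 points. Without chromosome 3, a check added after the values were seen, the difference was 2.50 in 180m G1, −2.19 in S, 0.63 in G2, −0.31 in K562 and −0.63 in 1e6. It was −18.8 in 90m G1, −8.75 for G1 cells, −21.2 in bulk, −5.00 in 50k and −0.94 in 200k.

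**Figure D4:**
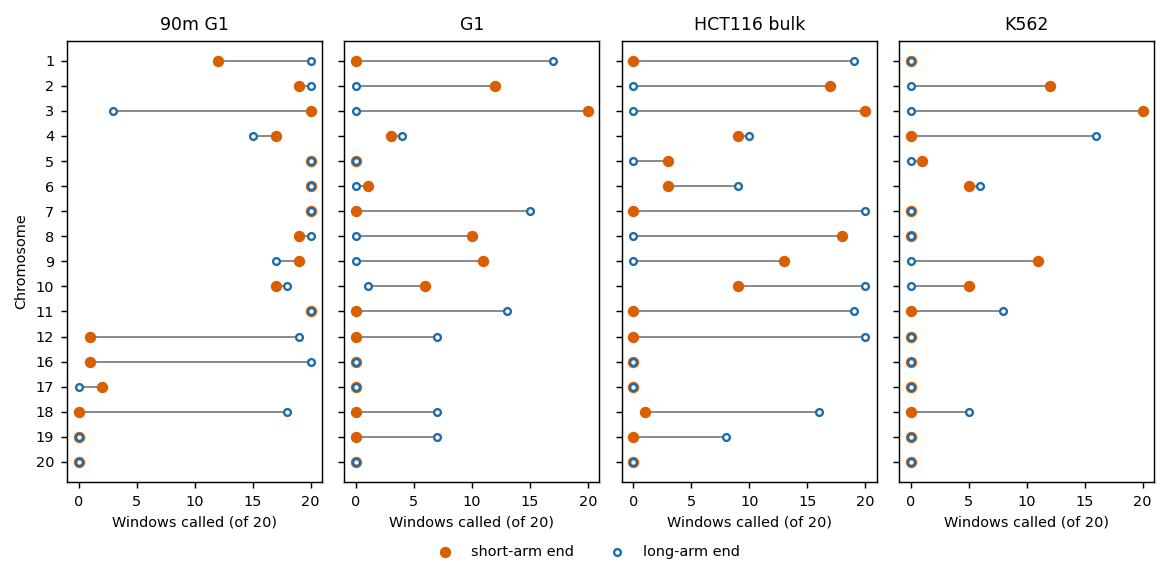
Windows called, of 20, at the short-arm end (filled) and the long-arm end (open) of the 17 chromosomes with both, in 4 of the 10 lists, with a line joining the 2 ends of a chromosome. In 90m G1 chromosomes 3, 12, 16 and 18 have one end nearly full and the other nearly empty.

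Both ends of a chromosome were often unlike each other after early G1 as well. In G1, 17 windows were called at 1q and 0 at 1p, 12 at 2p and 0 at 2q, 15 at 7q and 0 at 7p, 10 at 8p and 0 at 8q, 11 at 9p and 0 at 9q, and 13 at 11q and 0 at 11p. Over all 11 chromosomes with calls in G1 at one end and none at the other, the end without calls had the higher GC content on 9. The difference among these was widest on chromosome 9, with 41.1% at 9p and 55.2% at 9q, and narrowest on chromosome 6, with 43.6% at 6p and 45.2% at 6q. On chromosomes 12 and 18 the end without calls had the lower GC content, 44.1% at 12p against 51.4% at 12q and 39.4% at 18p against 48.2% at 18q.

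The long-arm ends of the 5 acrocentric chromosomes, 100 windows, had 56 called in 90m G1, all at 13q, 14q and 15q, and 0 at 21q and 22q. They had 7 to 12 called at the later stages, 7 to 9 in the 50k, 200k and 1e6 lists, 40 in the bulk list and 5 in K562.

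At the ends, windows called in bulk alone among the asynchronous lists were mostly called in 90m G1, as were bulk windows there in general. The bulk list called 153 terminal windows that none of the 50k, 200k and 1e6 lists did, or 19.6%, against 5.34% of all autosomal windows. Of these 153, 146 were called in 90m G1, which called 65.8% of all terminal windows and 93.1% of the bulk windows among them. Outside the ends, 823 of 1387 such windows were, against 34.9% of all bulk windows there. At 10q all 20 windows were called in bulk, against 18 in 90m G1, 0 to 2 at the later stages and 0 in the other asynchronous lists. The 12q end had 20 in bulk and 0 to 5 in the other asynchronous lists, and 15q had 18 and 0.

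Between cell lines, the result depended on which HCT116 list was used. K562 minus bulk was −23.1 points, with 94 windows against 274, 75 of them shared. That is 79.8% of the K562 windows and 27.4% of the bulk windows. Against 1e6 cells the difference was −0.13 points, with 94 windows against 95, and 56 shared, 59.6% and 58.9% of the 2 lists. Against 50k and 200k cells it was −3.08 and −1.15 points. At the ends, K562 had 0 windows that no HCT116 list called, although 4839 such windows were found outside the ends, or 16.8% of all autosomal windows. Even at the 12 ends that 90m G1 left nearly uncalled, K562 had 0 windows.

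The windows called in K562 but in none of the 4 asynchronous HCT116 lists numbered 19, at 3 ends. At 4q the K562 region covered chr4:189200001-190800000 of the terminal stretch and ran on inward to 3.3 Mb from the end. Of its 16 terminal windows, 5 to 7 were called in the asynchronous HCT116 lists. The other way around, 34 windows were called in all 4 asynchronous HCT116 lists and not in K562, or 4.36%, against 2.43%. They lay at 5 ends and held 57 protein-coding genes, or 16.8 per Mb. Most of these genes belong to the olfactory receptor cluster of 1q, of which these 4 lists called 41 to 43 genes and K562 0. The density is therefore not a trait of all 5 ends. At 1q, 8p and 14q all 9 HCT116 lists had calls and K562 had none.

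The 1q end, which holds a cluster of olfactory receptor genes, was called in 12 to 20 windows in the 9 HCT116 lists and in 0 in K562. In the published K562 TSA-seq list that was deposited for comparison, 13 windows were called there, over chr1:247600001-248900000. That list called 58 terminal windows, or 7.44%, against 33.6% of all windows, and 45 of them were shared with K562 cTSA-seq. The other 13 were those of 1q. The list of K562 regions depleted by both methods covered 489 terminal windows, or 62.7%, against 21.8%. Both K562 lists thus differed at 1q, and only for K562 were lists of 2 methods compared.

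Genes at the ends were counted as called when at least 80% of their length lay in called regions. In 90m G1 this held for 673 of 1215 terminal protein-coding genes, or 55.4%, against 16.7% of autosomal genes. It held for 69 in 180m G1 (5.68%, against 4.65%), 93 in G1 (7.65%, against 4.52%), 73 in S (6.01%, against 4.99%) and 76 in G2 (6.26%, against 4.22%). For the asynchronous HCT116 lists the counts were 218 in bulk (17.9%, against 10.4%), 88 in 50k (7.24%, against 5.51%), 72 in 200k (5.93%, against 4.72%) and 61 in 1e6 (5.02%, against 4.41%). In K562 the count was 13, or 1.07%, against 10.6%.

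By stage, 580 terminal genes were called in 90m G1 only and 528 at no stage. All 5 stages called 56, of which 43 are olfactory receptor genes, and 37 were called in 90m G1 and at some later stage. The 14 called only later were all at 19q. Only CHL1, CNTN6 and DMRT2, a transcription factor gene at 9p, were called in all 10 lists.

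**Figure D5:**
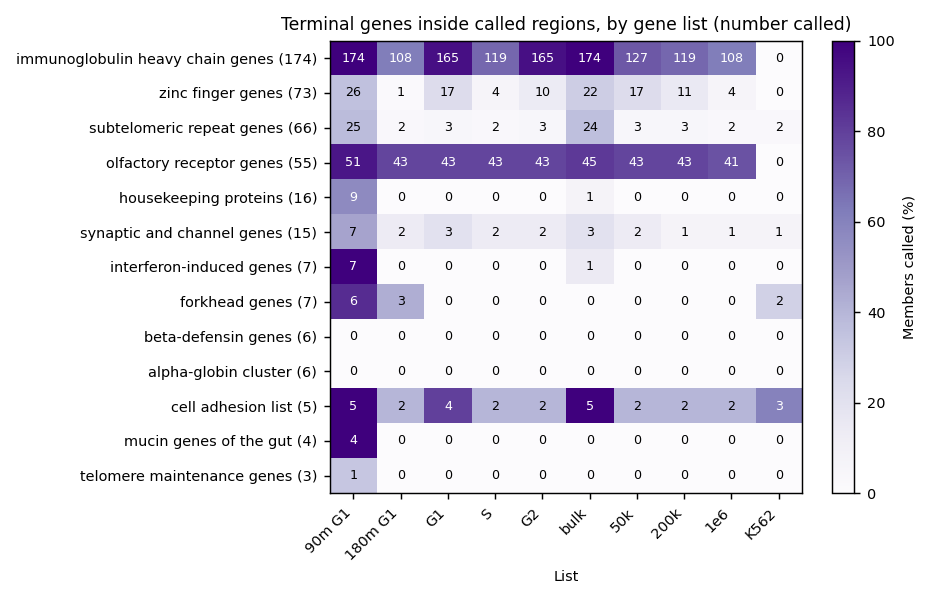
Number of terminal genes called (printed) and percent of the members of each gene list (color) in the 10 lists, with the number of terminal members in parentheses. Members of the lists named mucin and interferon-induced genes are called almost only in 90m G1, olfactory receptor and immunoglobulin genes in all HCT116 lists, and beta-defensin and alpha-globin genes in none.

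The gene lists below were chosen with results of these data known, and members of one list often sit side by side in the same called region, so they do not count as independent. Olfactory receptor genes, which encode odorant receptors, had 55 terminal members at 6 ends. In 90m G1 51 were called, or 92.7%, against 55.4% of all terminal protein-coding genes. At each later stage 43 were called, or 78.2%, against 5.68% to 7.65%. The asynchronous HCT116 lists called 41 to 45, and K562 called 0. The 43 at the later stages were those of the 1q cluster, among them OR2B11, OR2C3, OR2G2 and OR2G3. The members at 15q and 5q, 3 and 4 in number, were called in 90m G1 and at no later stage.

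Immunoglobulin heavy chain genes had 174 members at 14q, counting segments and pseudogenes. All 174 were called in 90m G1 and in bulk, 108 in 180m G1, 165 in G1 and G2, 119 in S, and 108 to 127 in the other asynchronous lists. None was called in K562. Of all annotated terminal genes, 59.7% were called in 90m G1, 14.8% in G1, 29.2% in bulk and 3.66% in K562. The near-identical immunoglobulin segments can share reads, and how such reads were counted is not known.

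Zinc finger genes, which encode DNA-binding proteins, had 73 terminal members at 10 ends. The counts over the stages were 26, 1, 17, 4 and 10, with 4 to 22 in the asynchronous HCT116 lists and 0 in K562. Over the stages these were 35.6%, 1.37%, 23.3%, 5.48% and 13.7%. For all terminal protein-coding genes the shares were 55.4%, 5.68%, 7.65%, 6.01% and 6.26%. The 43 at 19q gave 0 in 90m G1 and 6 in G1, the 8 at 8q gave 8 in 90m G1 and 0 afterwards, and the 7 at 12q gave 7 in 90m G1, 0 in 180m G1 and 7 in G1. At 4p, ZNF595, the outermost gene there, lies beside other genes of the family, and 4 of 5 were called in 90m G1, 0 in 180m G1 and 3 in G1.

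Subtelomeric repeat genes, copies that recur on many ends, such as the WASH, DUX4 and FAM138 families, had 66 terminal members at 24 ends. In 90m G1 25 were called, or 37.9%, against 59.7% of all annotated terminal genes. At later stages 2 to 3 were called, or 3.03% to 4.55%, against 10.5% to 14.8%. In bulk 24 were called, or 36.4%, against 29.2%. In bulk 21 of the 24 were the DUX4 and FRG2 copies and their neighbors at 4q (12) and 10q (9), none of which was called in any other list. These 2 ends carry near-identical repeat arrays, so reads of one can align to the other, and a call at each is not a separate observation.

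A list named interferon-induced genes had 7 terminal members, and whether interferon induces each of them was not measured. All 7 were called in 90m G1, against 55.4% of all terminal protein-coding genes. They were ISG15 at 1p, IFITM5, IFITM2, IFITM1, IFITM3 and IRF7 at 11p, and IRF4 at 6p. IRF4, a transcription factor of lymphocytes, was also called in bulk. IFITM1, IFITM2 and IFITM3 encode membrane proteins that restrict viral entry. All 4 mucin genes at 11p, MUC6, MUC2, MUC5AC and MUC5B, which encode gel-forming proteins of mucus, were called in 90m G1 and in no other list. Both groups rest largely on 11p, an end with 34.0 genes per Mb that was full in 90m G1 and empty in all other lists.

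Of 7 forkhead genes, 6 were called in 90m G1, or 85.7%, against 55.4% of all terminal protein-coding genes. FOXQ1, FOXF2 and FOXC1 at 6p were also called in 180m G1, FOXQ1 and FOXF2 in K562, and none in G1, S or G2. FOXK2 at 17q was called in no list. All 5 terminal members of a list named cell adhesion genes of neurons were called in 90m G1, against the same 55.4%. That name is loose for some members, described below. CHL1 and CNTN6 at 3p kept the call in every list. PTPRN2 at 7q, which encodes a receptor-type phosphatase protein of secretory vesicles, was also called in G1 and in bulk. At 11q, IGSF9B, which encodes an immunoglobulin superfamily adhesion protein, was also called in G1, bulk and K562, and JAM3, which encodes a junctional adhesion molecule, in bulk.

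Synaptic and channel genes had 15 terminal members and 7 called in 90m G1, or 46.7%, against 55.4% of all terminal protein-coding genes. These included SNTG2, a syntrophin gene at 2p that was called in all lists but 1e6, DLGAP2, which encodes a postsynaptic protein, at 8p, and SLC6A3, the dopamine transporter gene, at 5p. SLC6A12 and SLC6A13 at 12p, CACNA1H at 16p, CHRNA4 at 20q and SHANK3 at 22q were called in no list. Of 3 telomere maintenance genes, TERT at 5p, which encodes the catalytic subunit of telomerase, was called in 90m G1 and in no other list, while RAD52 at 12p and RTEL1 at 20q were called in none.

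Housekeeping genes had 16 terminal members, of which 9 were called in 90m G1, or 56.2% against the same 55.4%. These were GNB1, ACP1, SDHA, PSMB1, TBP, IDI1, PSMD13, RNH1 and POLE. POLE, the catalytic subunit of DNA polymerase epsilon, was also called in bulk, and no member was called at a later stage. The 7 that were never called, such as ACTG1 and FASN at 17q, TYMS at 18p and POLRMT at 19p, sit on ends that 90m G1 left empty or nearly so. The 6 genes of the alpha-globin cluster at 16p and the 6 beta-defensin genes at 20p, which encode antimicrobial peptides, were called in no list. Of all terminal windows, 31.0% were called in none. Both groups lay in the K562 regions depleted by both methods, as did 86.7% of all terminal protein-coding genes. Those regions covered all 20 windows of 16p, so this placement is not particular to the alpha-globin genes.

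The 13 terminal genes called in K562 included SNTG2 and PXDN at 2p, CHL1 and CNTN6 at 3p, FOXQ1 and FOXF2 at 6p, THBS2 at 6q, DMRT3 and DMRT2 at 9p, SPATA19 and IGSF9B at 11q and CERS3 at 15q. DMRT3 encodes a transcription factor related to DMRT2. All 13 were called in 90m G1 as well, against 55.4% of all terminal protein-coding genes. They lie at ends where 90m G1 called most windows. Genes at one end often share a called region, so the 13 are not separate observations.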

How the data were processed

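Lists of lamin-B1 cTSA-seq regions of HCT116 and K562 cells were used. The authors mapped reads to hg19 with Bowtie2 2.3.2 and dropped duplicates in samtools. Reads were then binned with bedtools 2.26.0 and libraries brought to one common total, after which pull-down over input was expressed as log2 and as a z-score. States came from a Hidden Markov Model of 3 states (depmixS4). Calls of replicates were intersected. The 90m G1 and 180m G1 lists are, unlike most others, not named as consensus lists. The 200k and 50k lists rest on 2 pull-down libraries and 1 input each, the 1e6 list on 1 of each, and the other lists on 2 of each. The deposited values are region starts and ends in bp, with no signal or count, so depth is unknown and no p-value was computed. The labels give 16 h of nocodazole and the Methods a longer time. Other data of the series, and 2 lists of regions that differed between methods, were not analysed here.

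Regions were placed on 100 kb windows, the outermost of a long arm being partial. GC content and unknown bases came from hg19, genes from GENCODE release 44 mapped to hg19, with at least 80% of a gene's length called, and promoters from RefSeq. Members, gene lists and the rule for named items were chosen with earlier results of these data known. Named were ends with 0 or all windows called in some lists and not in others, those with the 3 widest differences, their outermost and longest genes, and list members, up to 4 per list or all where 6 or fewer. Ends, genes and pairs named beyond that rule were chosen after their values were seen. The counting was tested on simulated lists, where 100% of 780 end counts were recovered. Alternatives were other end widths, base pairs in place of windows, gaps left out, regions of at least 200 kb, other reference lists and other gene rules. Calculations used Python 3.11.15, pandas and numpy. A few items are not reported here.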

Additional observations from a re-analysis of the deposited data

Results flagged for a closer look

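Among the 4 lists from asynchronous HCT116 cells, the bulk list lay far from the other 3 in 4 of 8 measures that were checked, by Dixon's ratio of the gap to the range. The share of terminal windows called was 35.1%, against 12.2% to 15.1% in the other lists. The share of short-arm terminal windows was 27.4%, against 15.6% to 16.5%. The share of long-arm terminal windows on chromosomes with both ends was 41.5%, against 10.3% to 15.6%. The share of acrocentric terminal windows was 40.0%, against 7% to 9%. The share called outside the ends did not stand apart in this way, at 25.7% against 20.3% to 21.8%. The measures overlap in the windows they count, and the 4 lists are region lists and not libraries of one group. Chance alone marks about 1 in 20 such groups of 4.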

How the results depend on the processing

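Of 156 recomputed values of 31 results, 115 stayed within the 95% counting interval of the reported value (Wilson for shares) and 41 left it. The sign was opposite to the reported one in 6, all of them short-arm minus long-arm differences. These were 5 values without chromosome 3 (S, 50k, 200k, 1e6 and K562) and the one of 50k with 1 Mb at each end, −1.18 points. That interval treats neighboring windows as independent, which they are not. Each condition has 1 list, so leaving out a replicate could not be run. No paired analysis was possible because the lists hold no replicate, although the labels share replicate numbers. Counting base pairs, leaving out windows with over 50% unknown bases, starting from the outermost assembled base and keeping only regions of at least 200 kb moved none of the 10 shares of terminal windows.

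With 1 Mb at each end the share became 11.03% in 180m G1, 15.9% for G1 cells, 13.3% in S, 12.8% in G2, 10.8% in 200k, 9.74% in 1e6 and 5.13% in K562. With 5 Mb it became 21.6% in 180m G1, 24.9% for G1 cells, 22.6% in S, 20.1% in G2, 38.9% in bulk, 20.7% in 50k, 18.8% in 200k, 17.5% in 1e6 and 20.1% in K562, and stayed at 66.9% in 90m G1. These widths take in other windows, which is the change itself.

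The short-arm minus long-arm difference in 90m G1 was −25.1 points with 5 Mb. Without chromosome 3, an alternative chosen after seeing the data, it became 2.50 in 180m G1, −8.75 for G1 cells, −2.19 in S, 0.63 in G2, −21.2 in bulk, −5.00 in 50k, −0.94 in 200k, −0.63 in 1e6 and −0.31 in K562.

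K562 minus bulk was −28.2 points with 1 Mb and −18.9 with 5 Mb. With another HCT116 list in place of bulk it was −0.13 against 1e6 and, chosen after seeing the data, −3.08 against 50k and −1.15 against 200k.

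Counting all annotated genes in place of protein-coding ones gave 59.7% in 90m G1, 10.5% in 180m G1, 14.8% for G1 cells, 11.03% in S, 12.9% in G2, 29.2% in bulk, 12.2% in 50k, 10.3% in 200k, 9.17% in 1e6 and 3.66% in K562. At 14q these include the immunoglobulin segments. Requiring any overlap or all of the gene moved no gene share.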
